A study of Mus musculus with 9 samples.

Results

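The 10 genes described here encode 9 phase II detoxification enzymes and 1 conjugate exporter: Nqo1, Cbr3, Akr1b8, Ephx1, Gsta1, Gsta2, Gsta4, Gstm1, Gstp1 and Abcc1. They were chosen by name, with earlier results of these data known. Their rows are those whose Ensembl gene ID carries 1 of these symbols, and all 10 were found among the 55416 genes of each table. RNA came from 4T1 cells, a BALB/c mouse mammary carcinoma line, in 9 libraries. The PBS group held 3 libraries of cells kept in DMEM medium alone for 12 h and labelled untreated. The MRC group held 3 libraries of cells that had been in DMEM with MRC nanoparticles for 12 h, and the labels do not spell out MRC. The MRC+L group held 3 libraries of cells given MRC for 12 h and then a 660 nm laser for 3 min at 180 mW per cm2. A single established line was used throughout, a group given light without particles is not analysed here, and the labels do not say whether libraries of a group came from separate cultures. The p-values therefore measure only the spread between these libraries, which may be technical.

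Phase II enzymes make reactive or oily compounds harmless and soluble. Reductases remove quinone and carbonyl groups, epoxide hydrolases open epoxides, glutathione transferases (GSTs) join glutathione to electrophiles, and ABC transporters pump the conjugates out of the cell. Many of these genes carry antioxidant response elements, to which NRF2 binds with a small MAF partner once its inhibitor KEAP1 is modified by oxidants or electrophiles. Some also answer to the aryl hydrocarbon receptor.

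Library totals ran from 15019765 to 20044166 counts, and levels are given below as CPM, the count relative to the library size after scaling by edgeR's TMM factors. PBS replicate 2 stood apart from the other libraries: its short genes exceeded its long genes by 1.25 on a log2 scale relative to the mean of all libraries, against -0.32 to 0.14 elsewhere. It also held the highest PBS level for all 8 tested members under 2000 exonic bases, as it did for 69.7% of the 2488 tested genes of that length. The biological coefficient of variation was 0.280 among PBS libraries, 0.0807 among MRC and 0.0580 among MRC+L, so the control spread sets the precision of every comparison with PBS. Results are therefore also given without that library. Of 10 epithelial markers, 9 had a count, mainly Krt8, Krt18 and Krt7, while Krt5 was at 0 and Epcam was at most 0.311 CPM. Only 4 of the 10 had a mean over 1 CPM in PBS, 5 in MRC and 6 in MRC+L. Their summed level was 1057 to 1878 CPM in PBS, 635 to 668 in MRC and 562 to 573 in MRC+L. Summed levels of 10 leukocyte markers were 28.1 to 44.6, 33.7 to 41.1 and 33.7 to 38.5 CPM, and Ptprc, Cd3e, Adgre1 and Itgam were among those at 0 in PBS. Most of this sum was Cd14 and Cd68. Cd68 was at 7.05 to 11.8 CPM in PBS, 16.6 to 22.2 in MRC and 17.2 to 19.5 in MRC+L. Cd14 was at 18.5 to 32.5, 16.7 to 20.8 and 15.1 to 18.4 CPM. Summed levels of 8 fibroblast markers, mostly Pdgfra, were 43.6 to 78.8, 75.7 to 93.6 and 74.1 to 84.3 CPM. That sum hides opposite directions. Pdgfra was at 29.6 to 57.6 CPM in PBS, 70.1 to 85.2 in MRC and 66.7 to 76.0 in MRC+L. Pdgfrb was at 12.4 to 19.8, 4.37 to 7.54 and 4.91 to 6.21 CPM. The part of these marker shifts in the results below was not tested, and in such bulk RNA fewer cells with a transcript and less transcript per cell cannot be told apart.

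Of the 10 members, 9 passed the filter on low counts. Gsta1, with 4, 17 and 0 counts in PBS, and Gsta2, with 0, 3 and 1, passed it only through the particle libraries. These members could thus hardly have been called lower, and they are part of the counts and medians of members below. After MRC alone, 5 rose (Nqo1, Gsta1, Gsta2, Gsta4 and Abcc1) and 2 fell (Ephx1 and Gstm1) at an adjusted p under 0.05 in edgeR's quasi-likelihood test. Among all 13439 genes tested, 37.6% were called, 17.8% higher and 19.8% lower. The same 7 members had groups of libraries that did not overlap, as did 48.3% of all genes. The median log2 fold change was 1.38 over the 9 tested members and -0.03 over all genes tested. Medians over the members are only a description, as the members were chosen with earlier results known and Gsta1 and Gsta2 may share reads. After MRC with light, 5 members were higher and 1 was lower than PBS, where 46.2% of all genes were called, 21.8% higher and 24.5% lower, and 56.3% had groups that did not overlap. The median was then 1.44 over the members and -0.03 over all genes. The comparisons of MRC and of MRC+L with PBS share the same 3 PBS libraries. Leaving out PBS replicate 2, 6 members were higher and 2 lower after MRC (50.6% of all genes called), and 6 were higher and 1 lower after MRC+L (55.7%). The added member was Gstp1.

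**Figure D1:**
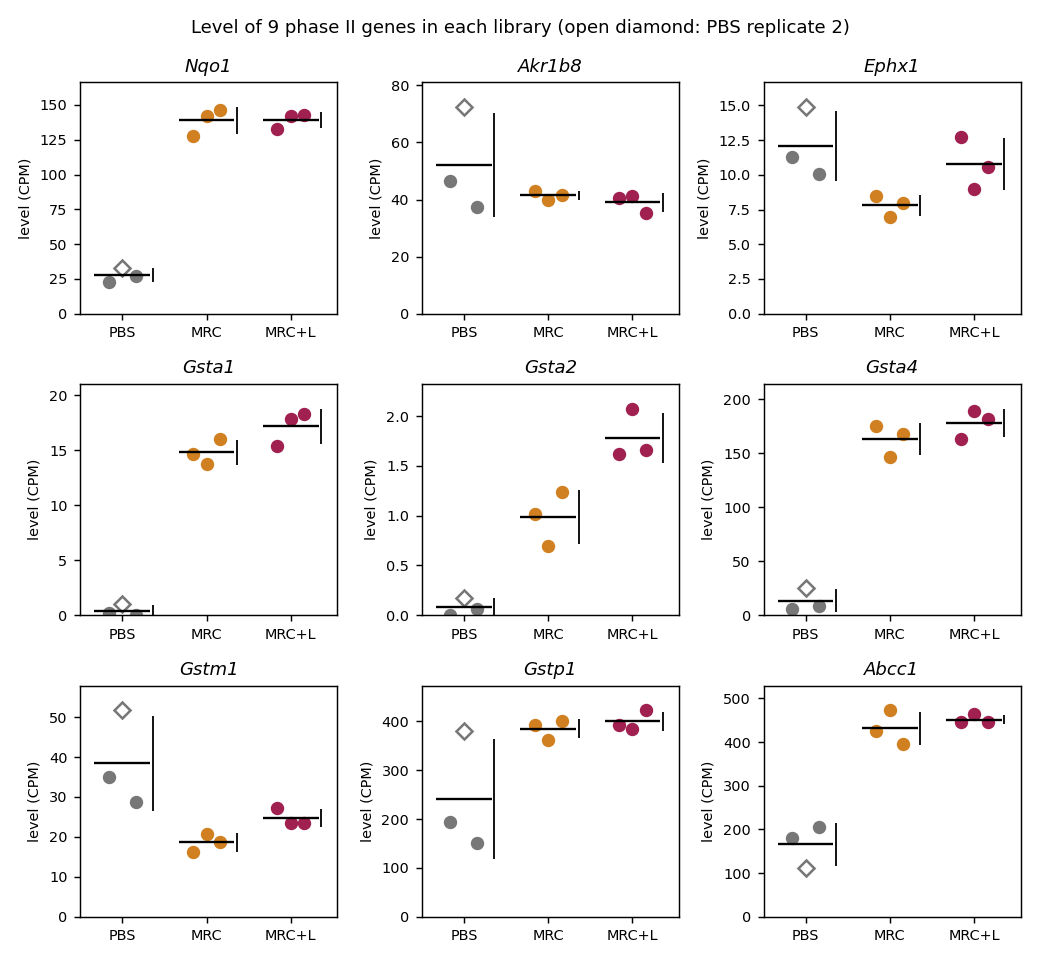
Level in CPM (y axis, linear, from 0) of the 9 members with counts in each of the 9 libraries, by group. Circles and the open diamond are single libraries, the diamond being PBS replicate 2, horizontal lines are group means and vertical lines span 1 SD. Nqo1, Gsta1, Gsta2, Gsta4 and Abcc1 lie above every PBS library in both particle groups, whereas Akr1b8 overlaps.

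Per kilobase of exonic length, Gstp1 had the highest level in every group, with a mean of 155.8 CPM per kilobase in PBS, 248.6 in MRC and 258.4 in MRC+L. In PBS it was followed by Akr1b8 at 34.7, Gstm1 at 26.1, Nqo1 at 17.8, Abcc1 at 11.0, Gsta4 at 10.7, Ephx1 at 6.20, Gsta1 at 0.421 and Gsta2 at 0.0676. In MRC the order was Gsta4 at 129.1, Nqo1 at 89.4, Abcc1 at 28.6, Akr1b8 at 27.7, Gsta1 at 15.5, Gstm1 at 12.6, Ephx1 at 4.01 and Gsta2 at 0.836. Gsta4 thus stood next below Gstp1 in MRC, whereas 4 other members stood between them in PBS. The value of Abcc1 is divided by 15092 bases, the union of all its annotated exons, which lowers it relative to genes with a single transcript form. Reads that map to more than 1 place may be uncounted, which would lower genes with near-identical copies. Of 50-base transcript stretches, 90.5% for Gsta1, 49.8% for Gsta2, 33.7% for Gstp1 and 18.9% for Gstm1 also occur in another gene. The ranks of Gsta1, Gsta2 and Gstm1 are thus uncertain.

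Nqo1 (chromosome 8, 108114857 to 108129838, minus strand, GRCm39) encodes NAD(P)H quinone oxidoreductase, which reduces quinones fully to hydroquinones and is a classical NRF2 target. Its level was 22.9, 32.7 and 27.1 CPM in the PBS libraries, 128, 142 and 146.5 CPM in MRC, and 132.4, 142.4 and 142.5 CPM in MRC+L. Every particle library lay above every PBS library, and the MRC+L range lay within the MRC range. Nqo1 was 5.04-fold higher in MRC than in PBS (log2 2.33 ± 0.137 SE, edgeR adjusted p = 3.15e-06, n = 3 per group) and 5.05-fold higher in MRC+L (2.34 ± 0.137, adjusted p = 2.11e-06). No stretch of 50 bases in its annotated transcripts occurred in another gene.

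Cbr3, a carbonyl reductase on chromosome 16 (93480103 to 93487878, plus strand), had a count of 0 in all 9 libraries. A count of 0 allows up to 3 counts, or 0.150 to 0.200 CPM by library. Cbr3 was below the filter and entered no test.

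Akr1b8 (chromosome 6, 34331054 to 34345398, plus strand) encodes an aldo-keto reductase that acts on aldehydes such as retinal. Its level was 46.4, 72.4 and 37.3 CPM in PBS, 43.0, 39.8 and 41.7 CPM in MRC, and 40.7, 41.4 and 35.3 CPM in MRC+L. The particle libraries lay within or below the PBS range. The difference from PBS did not pass the test in MRC (log2 -0.33 ± 0.206, adjusted p = 0.237) or in MRC+L (-0.41 ± 0.206, adjusted p = 0.125). It passed without PBS replicate 3, at -0.52 (adjusted p = 0.0298) and -0.61 (adjusted p = 0.0123), and was -0.023 in MRC without PBS replicate 2. Of 17 other settings, 1 called Akr1b8 in MRC and 3 called it in MRC+L.

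Ephx1 (chromosome 1, 180803775 to 180848469, minus strand) encodes microsomal epoxide hydrolase. Its level was 11.3, 14.9 and 10.1 CPM in PBS, 8.49, 6.99 and 7.99 CPM in MRC, and 12.7, 8.97 and 10.6 CPM in MRC+L. The MRC libraries lay below all PBS libraries, and the MRC+L libraries overlapped PBS. Ephx1 was 1.55-fold lower in MRC (log2 -0.63 ± 0.191, adjusted p = 0.0262) and did not pass the test in MRC+L (-0.17 ± 0.188, adjusted p = 0.492). The MRC call ended without MRC replicate 1 (adjusted p = 0.0543), MRC replicate 2 (0.0965) or MRC replicate 3 (0.0669), and in a fit to the 6 libraries (0.0508). When PBS replicate 2 was left out the value was -0.46 in MRC (adjusted p = 0.0275) and 0.012 in MRC+L (0.956).

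The alpha-class GSTs lie together on mouse chromosome 9. Gsta4 (78090056 to 78116631, plus strand) encodes the form that conjugates hydroxynonenal, a product of lipid peroxidation. Its level was 6.06, 25.7 and 8.71 CPM in PBS, 175.5, 146.6 and 168.3 CPM in MRC, and 163.5, 189.5 and 181.5 CPM in MRC+L. The PBS libraries were far below all particle libraries, with PBS replicate 2 at several times the others. Gsta4 was 12.1-fold higher in MRC (log2 3.60 ± 0.439, adjusted p = 0.000183) and 13.2-fold higher in MRC+L (3.73 ± 0.441, adjusted p = 0.000114). The log2 fold changes without PBS replicate 2 were 4.47 and 4.60. None of its 50-base stretches occurred in another gene.

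Gsta1 (78137938 to 78149966, plus strand) had 4, 17 and 0 counts in PBS, 231, 237 and 324 in MRC, and 285, 267 and 310 in MRC+L. In CPM these are 0.209, 1.00 and 0, then 14.6, 13.8 and 16.1, then 15.4, 17.9 and 18.3. The control libraries held few counts, and the particle groups did not overlap them. Gsta1 was 36.2-fold higher in MRC (log2 5.18 ± 0.517, adjusted p = 5.64e-05) and 42.0-fold higher in MRC+L (5.39 ± 0.516, adjusted p = 3.08e-05). The ratio of pooled counts per library size was 37.1 with a 95% interval from 24.1 to 60.2 in MRC. It was 42.6 (27.7 to 69.1) in MRC+L, and both intervals cover counting error only. Of the 21 PBS counts, 17 came from PBS replicate 2, and without it the log2 fold changes were 6.94 and 7.15.

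Gsta2 (78238300 to 78263070, minus strand) had 0, 3 and 1 counts in PBS, 16, 12 and 25 in MRC, and 30, 31 and 28 in MRC+L. It stayed far below Gsta1 in both particle groups, at means of 0.984 ± 0.272 and 1.78 ± 0.253 CPM (SD, n = 3). The log2 fold change was 3.56 ± 0.635 in MRC (adjusted p = 0.00171) and 4.41 ± 0.604 in MRC+L (adjusted p = 0.000286). With only 4 PBS counts, the pooled ratio was 13.0 (95% interval 4.80 to 49.5) and 23.1 (8.70 to 86.5). These intervals too cover counting error only. Without PBS replicate 2, which leaves 1 PBS count, the log2 fold changes fitted by edgeR were 4.80 and 5.64.

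The counts of these genes cannot be assigned with certainty, because the alpha copies are nearly alike. In the GENCODE M21 transcripts, 90.5% of the 50-base stretches of Gsta1 and 49.8% of those of Gsta2 also occurred in another gene, namely each other and the unnamed copies Gm3776 and Gm10639. The coding sequence of Gsta1 matched Gsta2 at 655 of 672 positions (97.5%), Gm3776 at 99.7% and Gm10639 at 96.9%, but Gsta4 at 65.5%. The 60 coding bases from 469 to 528 hold 6 of the 16 positions that differ among the copies in their first 600 coding bases. They were picked as the stretch with the most differing positions, and show how few bases separate the copies even there. Capitals mark the positions that differ.
Gsta1: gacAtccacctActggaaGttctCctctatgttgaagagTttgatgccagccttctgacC
Gsta2: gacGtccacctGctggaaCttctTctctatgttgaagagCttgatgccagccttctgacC
Gm3776: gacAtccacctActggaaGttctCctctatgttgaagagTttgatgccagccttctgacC
Gm10639: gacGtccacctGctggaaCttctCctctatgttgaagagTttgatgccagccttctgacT
Gsta1 and Gm3776 are identical over this stretch.

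Both unnamed copies, chosen after their values were seen, followed the same order of groups. They too passed the filter on low counts only through the particle libraries. Gm3776 had 0, 6 and 0 counts in PBS, 131, 114 and 131 in MRC, and 171, 146 and 159 in MRC+L (log2 5.87 ± 0.559 and 6.27 against PBS). Gm10639 had 0, 2 and 1 counts in PBS, 55, 27 and 46 in MRC, and 38, 46 and 68 in MRC+L. Summed over Gsta1, Gsta2, Gm3776 and Gm10639, a setting added after the data were seen, the level was 0.660 ± 0.855 CPM in PBS, 25.4 ± 2.43 in MRC and 31.5 ± 2.80 in MRC+L. The sum was 38.4-fold higher in MRC (log2 5.26 ± 0.502, adjusted p = 4.27e-05) and 47.7-fold higher in MRC+L (5.58, adjusted p = 2.21e-05). Each of the 4 rose singly, so their sum had to rise, and reads left uncounted because they map to more than 1 place are in neither.

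A stretch upstream is also alike. A window of 80 bases before the RefSeq starts of Gsta1 and Gsta2 (GRCm38.p6) is shown because both genes rose together. Of its 80 bases 75 (93.8%) are identical. It was picked by search as the most alike pair of windows, so this share is the highest found. Identity over the whole 250 bases was not measured. Capitals mark the 5 that differ, and both are written in the direction of the gene. For Gsta1 the window is chr9:78230543-78230622 on the plus strand, from 126 to 47 bases before the start, and for Gsta2 it is chr9:78347195-78347274 on the minus strand, from 129 to 50 bases before the start.
Gsta1: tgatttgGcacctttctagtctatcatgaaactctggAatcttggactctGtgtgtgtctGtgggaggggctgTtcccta
Gsta2: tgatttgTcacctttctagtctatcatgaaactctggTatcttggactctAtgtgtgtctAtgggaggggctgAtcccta
RefSeq promoters were matched for 8 of the 10 members, with 9 start sites. In the 250 bases before the start, on both strands, the antioxidant response element core TGACNNNGC was found in 0 of the 8, and in 10.2% of all 32851 promoters. The aryl hydrocarbon receptor core GCGTG was found in 4 (Akr1b8, Gsta2, Gstm1 and Gstp1), and in 28.2% of all promoters. These are matches of letters in a short window and not measured binding. The search would miss elements farther upstream or of another spelling. The Gstp1 promoter, for instance, holds TGAGTCAGC, which has a G where the pattern asks for a C. Finding 0 matches thus does not show that these genes lack such elements.

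Gstm1, of the mu class (chromosome 3, 107919571 to 107925289, minus strand), went the other way. Its level was 35.1, 51.7 and 28.6 CPM in PBS, 16.3, 20.8 and 18.7 CPM in MRC, and 27.3, 23.5 and 23.4 CPM in MRC+L. All particle libraries lay below all PBS libraries, and the MRC+L libraries lay between MRC and PBS. Gstm1 was 2.06-fold lower in MRC (log2 -1.05 ± 0.204, adjusted p = 0.00286) and 1.55-fold lower in MRC+L (-0.64 ± 0.201, adjusted p = 0.0261). Without PBS replicate 2 the values were -0.78 (adjusted p = 2.66e-05) and -0.37 (0.0170). The MRC+L call ended without MRC+L replicate 2 (adjusted p = 0.0864) or MRC+L replicate 3 (0.0881), in a fit to the 6 libraries (0.0608) and with the length trend of each library removed (0.0614). Of its 50-base stretches 18.9% occurred in another gene, and with all mu copies summed neither comparison passed (-0.48, adjusted p = 0.0796 in MRC, and -0.35, adjusted p = 0.173 in MRC+L). Most of that sum is Gstm2, named after its values were seen, whose mean was 70.2 CPM in the PBS libraries and 58.1 with MRC, and of whose own stretches 5.65% were shared.

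Gstp1 (chromosome 19, 4085407 to 4087985, minus strand) encodes the pi-class GST, abundant in many tumours. Its level was 193.3, 379.9 and 150.2 CPM in PBS, 393, 362.1 and 399.6 CPM in MRC, and 392.6, 385.1 and 422.3 CPM in MRC+L. The particle libraries lay close together, while PBS replicate 2 was at their level and the other PBS libraries were well below. With all libraries the difference did not pass the test in MRC (log2 0.67 ± 0.275, adjusted p = 0.0779) or in MRC+L (0.73 ± 0.275, adjusted p = 0.0517). Without PBS replicate 2 it was 1.16 (adjusted p = 4.80e-09) and 1.22 (1.77e-09). With the length trend removed and all libraries kept, it was 0.96 (adjusted p = 0.000339) and 1.10 (0.000112). DESeq2 called it with all libraries (adjusted p = 0.0445 and 0.0219), so the call depended on the test and on that control library. Of its stretches 33.7% were shared, mainly with Gstp2, whose mean level was under 1 CPM in every group. As 54.3% of the stretches of Gstp2 were shared too, its own level may be undercounted. Gstp2, named after its values were seen, was called higher in MRC (edgeR adjusted p = 0.0192) and in MRC+L (0.0262). It passed the filter on low counts only through the particle libraries.

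Abcc1 (chromosome 16, 14179422 to 14293601, plus strand) encodes MRP1, the ATP-driven pump for glutathione conjugates and oxidised glutathione. Its level was 180.7, 111 and 206.3 CPM in PBS, 424.8, 472.5 and 395.9 CPM in MRC, and 444.7, 463.1 and 445.5 CPM in MRC+L. All particle libraries exceeded all PBS libraries. Abcc1 was 2.60-fold higher in MRC (log2 1.38 ± 0.197, adjusted p = 0.000467) and 2.72-fold higher in MRC+L (1.44 ± 0.197, adjusted p = 0.000280). In contrast to the 8 shorter members, it was lowest in PBS replicate 2, as were 71.8% of the 5232 tested genes of at least 5000 bases. Without that library the values were 1.15 and 1.22, still past the threshold (adjusted p = 2.08e-09 and 6.75e-10).

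**Figure D2:**
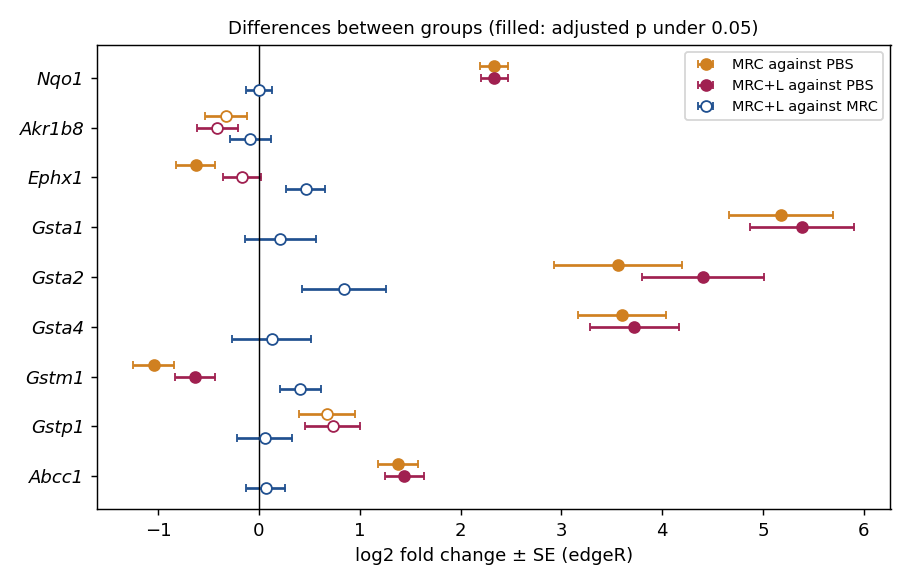
Log2 fold change (x axis) of each tested member in the 3 comparisons, with its standard error from edgeR. Filled points have an adjusted p under 0.05. The values against PBS reach 5.39 for Gsta1 in MRC+L, and all points of MRC+L against MRC are open.

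The comparison of MRC+L with MRC asks what the laser added to the particles, at a time after the light that is not given here. No member passed the test, and 0% of the 13439 genes did in edgeR's fit to all libraries. At an unadjusted p under 0.05 there were 573 genes (4.26%), among them 1 member, Ephx1. DESeq2 called 25 genes and limma voom with sample weights 262. Nqo1 differed by 0.00 ± 0.129 on the log2 scale, Abcc1 by 0.07 and Gstp1 by 0.06 ± 0.274. Gsta4 differed by 0.12 ± 0.388 and Gsta1 by 0.21 ± 0.355, with standard errors wider than those of Nqo1. In 3 members the MRC+L libraries all lay above the MRC libraries, as did those of 11.8% of all genes (24.4% did not overlap in either direction). These were Ephx1 (0.46 ± 0.192, unadjusted p = 0.0365), Gsta2 (0.84 ± 0.417, unadjusted p = 0.0706) and Gstm1 (0.41 ± 0.204, unadjusted p = 0.0716), each with an adjusted p of 0.988. This comparison and that of MRC with PBS share the same 3 MRC libraries. In a fit to the 6 particle libraries alone, without the wide PBS spread, 654 genes (5.05%) were called. Gstm1 was then the only member called, at 0.41 (adjusted p = 0.0312), and Ephx1 was at 0.47 (adjusted p = 0.0786). Without PBS replicate 2, 89 genes (0.647%) and no member were called.

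**Figure D3:**
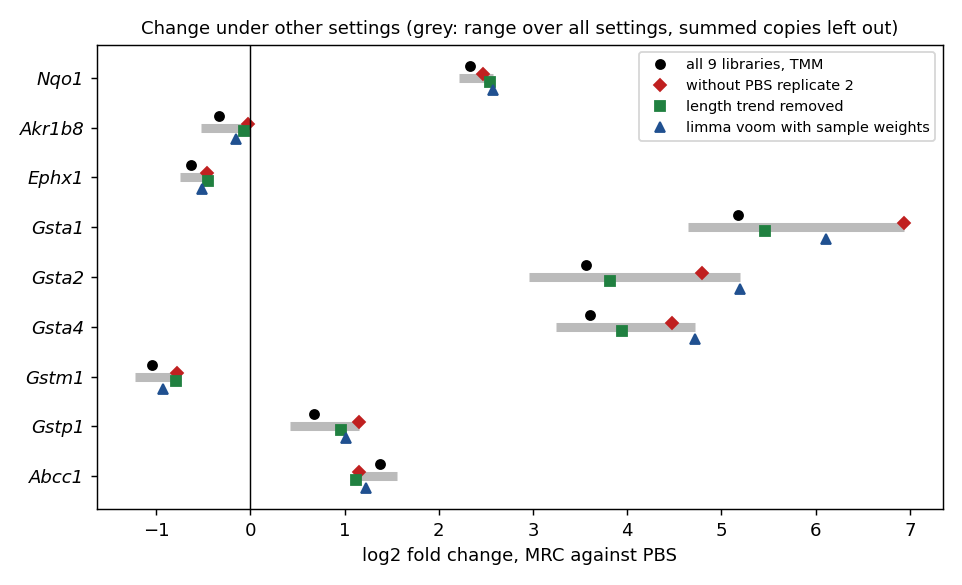
Log2 fold change of MRC against PBS (x axis) for each tested member under 4 named settings, with the range over all settings but the summing of copies in grey. The Gsta1 value moves from 5.18 with all libraries to 6.94 without PBS replicate 2, and that of Gstp1 from 0.67 to 1.16, while every member keeps its sign under the settings drawn.

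In the fits of the 6 libraries of each pair of groups, which share no spread with the third, 5 members were higher and 1 was lower in MRC (28.6% of genes called), and 5 were higher and 0 lower in MRC+L (37.3%).

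The lists below are to be read against all genes tested, of which 17.8% were higher and 19.8% lower in MRC, and 21.8% and 24.5% in MRC+L. Of 17 tested GST genes, members included, 5 were higher and 3 lower in MRC (median log2 change 0.01), and 5 were higher and 4 lower in MRC+L (median -0.11). The lower calls are thus near the share over all genes, and members made up 3 of the 5 that rose. These counts and medians leave out Gsta13, whose symbol was not found, and the alpha copies Gm3776 and Gm10639. Both copies were higher in MRC (log2 5.87, edgeR adjusted p = 4.25e-05, and 5.23, adjusted p = 0.000219). Mgst1, a membrane-bound transferase and peroxidase, went from 18.6 ± 5.44 to 27.6 ± 4.05 CPM in MRC (adjusted p = 0.0491), a call that ended in 11 of 17 other settings, among them without any of 8 single libraries. Mgst3, its relative, fell 2.10-fold in MRC (20.3 to 9.59 CPM, adjusted p = 0.00854). Gstt3, of the theta class, fell 2.13-fold (7.85 to 3.67 CPM, adjusted p = 0.0114), and the call ended without MRC replicate 1 (0.0531). The family count without PBS replicate 2 was 7 higher and 3 lower in MRC, with a median of 0.22, and 6 higher and 3 lower in MRC+L, where the median turned to 0.19.

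Of 18 tested quinone, carbonyl and aldo-keto reductases other than Nqo1 and Akr1b8, 3 were higher and 10 lower in MRC, and 3 were higher and 12 lower in MRC+L. With those members the median of the 20 was -0.50 in MRC and -0.77 in MRC+L. Leaving out PBS replicate 2, where 50.6% of all genes were called in MRC, 4 of the 20 were higher and 9 lower (median -0.32). In MRC+L, where 55.7% were called, they were 4 and 13 (median -0.50). The 6-library fits gave 2 higher and 7 lower in MRC (28.6% of all genes called), and 3 and 10 in MRC+L (37.3%). Nqo2, the quinone reductase that uses dihydronicotinamide riboside, fell from 26.4 ± 2.26 to 11.6 ± 1.20 CPM in MRC, 2.27-fold (adjusted p = 0.000225), and stood at 10.8 ± 1.64 CPM in MRC+L. Akr1b3, aldose reductase, rose from 91.4 ± 24.9 to 241.7 ± 23.1 CPM, 2.64-fold (adjusted p = 0.000254). Akr1c12 fell 2.32-fold (adjusted p = 0.00168). Both tested epoxide hydrolases, Ephx1 and Lta4h, were lower in MRC, and 1 of them in MRC+L. Lta4h, which makes leukotriene B4, was 1.29-fold lower in MRC (adjusted p = 0.0139), and this call ended without MRC replicate 1 (0.0617), with no filter on low counts (0.111) and in the 6-library fit (0.0611). In that fit neither epoxide hydrolase was called in MRC.

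Of 10 tested efflux transporters, Abcc1 included, 6 were higher and 1 lower in both MRC (median 0.70) and MRC+L (median 0.82). Without PBS replicate 2 the medians were 0.66 and 0.75. Abcc4, which exports cyclic nucleotides and conjugates, rose 3.70-fold from 60.7 ± 21.4 to 224.5 ± 20.6 CPM (adjusted p = 0.000171), and Abcc5 rose 2.41-fold (adjusted p = 0.00135). Abcc3, an exporter of glucuronides, was the 1 that fell, 2.75-fold from 59.5 ± 10.4 to 21.6 ± 2.13 CPM (adjusted p = 0.000212). Other conjugating enzymes held 0 higher and 3 lower of 9 tested in MRC (median -0.26), and 0 and 4 in MRC+L (median -0.43). Their medians without PBS replicate 2 were -0.25 and -0.42. Ugdh, which makes the glucuronic acid donor, fell 1.95-fold from 222.9 ± 5.41 to 114.5 ± 6.32 CPM (adjusted p = 4.20e-05). Papss1, which makes the sulfate donor, fell 1.46-fold (adjusted p = 0.00202), and As3mt, an arsenic methyltransferase, fell 2.21-fold (adjusted p = 0.00132).

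Of 11 tested genes of the NRF2 system, 6 were higher and 0 lower in MRC (median 0.70), and 7 and 0 in MRC+L (median 0.74). Leaving out PBS replicate 2, the medians were 0.49 and 0.59. Sqstm1, whose product p62 binds KEAP1, rose 4.32-fold (adjusted p = 1.59e-05). Mafg and Mafk, the small MAF partners, rose 1.79-fold (adjusted p = 0.000208) and 1.76-fold (adjusted p = 0.000261). Nfe2l2, which encodes NRF2, was at 226.1 ± 12.6 CPM in PBS, 223 ± 2.01 in MRC and 227.7 ± 2.84 in MRC+L (log2 -0.02 ± 0.0899 in MRC, adjusted p = 0.886). Keap1 had an adjusted p of 0.392 in MRC. Bach1, another gene of the list that rose, was 2.05-fold higher in MRC (adjusted p = 0.00194). The list holds inhibitors as well as partners of NRF2, so its counts do not measure NRF2 activity. Nfe2l2, Keap1 and Bach1 were named after their values were seen.

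**Figure D4:**
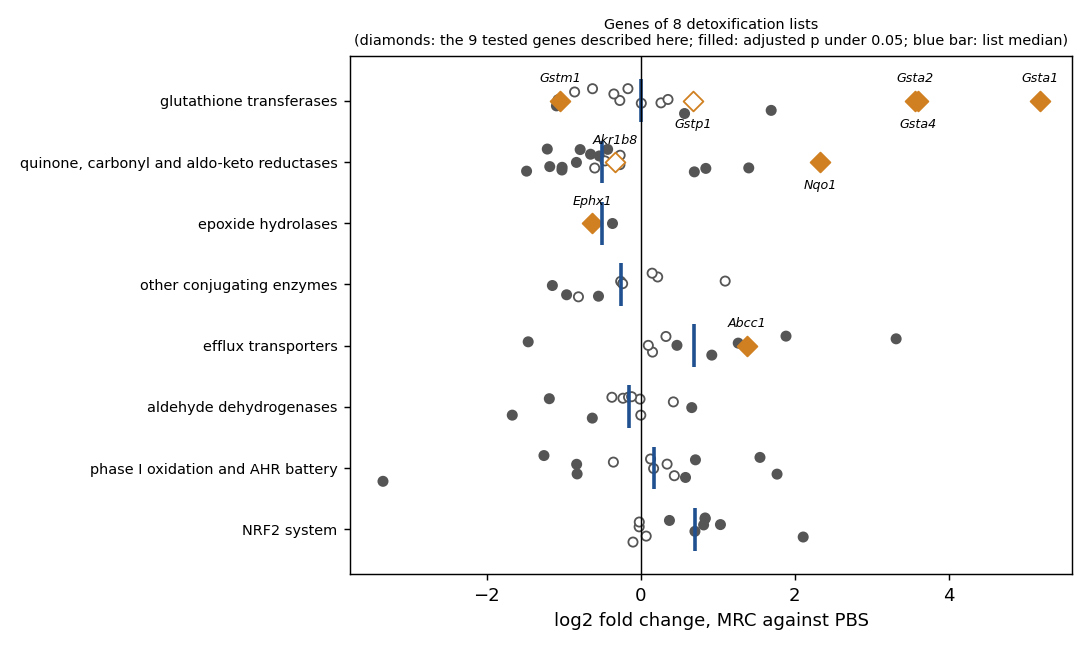
Log2 fold change of MRC against PBS (x axis) of every tested gene in 8 lists (rows). Diamonds are the 9 tested members, circles the other genes, filled symbols have an adjusted p under 0.05, and blue bars mark list medians, from -0.50 for the reductases to 0.70 for the efflux transporters and the NRF2 system.

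Over the 9 libraries, the protein-coding genes whose log2 level was most like that of Nqo1 were Artn, Dusp1, Srxn1, Fads3 and Pgd, with Pearson r of 0.995 to 0.996. This is a description across libraries that share their 3 groups. Srxn1, which repairs overoxidised peroxiredoxins, averaged 132.9 CPM in PBS, 982.3 in MRC and 1097 in MRC+L. Pgd, an NADPH-producing enzyme of the pentose phosphate pathway, averaged 278, 795.7 and 840.2 CPM. Dusp1, a MAP kinase phosphatase, averaged 20.5, 105.2 and 111.6 CPM.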

How the data were processed

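RNA-seq of 9 libraries of 4T1 cells, 3 per group, was used. The authors deposited raw counts of read pairs per gene, made with featureCounts 2.0.1 over exons with the Ensembl 104 annotation of GRCm39, per the file headers. The headers show no strand option and no option to count reads that map to more than 1 place, so near-identical copies are uncertain. The aligner is not given in the sources used here. Groups came from the labels.

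Symbols came from GENCODE M21 by gene ID (52083 of 55416 IDs, 94%). Genes were kept by edgeR's filter (minimum count 10, minimum total 15), which left 13439. The quasi-likelihood test of edgeR 4.0.16 (R 4.3.3) used TMM factors and a single fit of all 9 libraries by group, with Benjamini-Hochberg adjustment over all genes and calls at an adjusted p under 0.05. The scripts were tested on simulated data. Alternatives used DESeq2 1.42.0, limma 3.58.1 (voom with sample weights), RLE factors, robust estimation, no filter, a length correction, a replicate block, 6-library fits, summed copies and each library left out.

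The members and lists were chosen with earlier results of these data known. All 10 members are named, as are up to 3 called genes per list with the smallest adjusted p in each comparison and a mean of at least 5 CPM, and the 5 genes most like Nqo1. Sequences are from GENCODE M21 transcripts (GRCm38) and RefSeq promoters (GRCm38.p6). Motifs were searched in 250 bases before each start, and shared stretches were 50 bases long.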

Additional observations from a re-analysis of the deposited data

How the results depend on the processing

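The summing of 4 alpha copies was added after the data were seen. In the comparison of MRC with PBS, limma voom called 8851 genes against 5050 with edgeR, and for MRC+L against PBS 9856 against 6212. For MRC+L against MRC, where edgeR called 0 genes, DESeq2 called 25, voom 262, the fit with no filter 15, the fit with the length trend removed 4 and the 6-library fit 654, in which 1 member was higher. Members lower in MRC numbered 1 in the 6-library fit. Members lower in MRC+L numbered 2 with voom and with no filter, and 0 with the length trend removed and in the 6-library fit. With single libraries left out, called genes ranged from 3562 to 6962 for MRC, 4702 to 7659 for MRC+L and 0 to 89 for MRC+L against MRC. Members lower then ranged from 1 to 3 and from 0 to 2, and members higher from 5 to 6 in both comparisons with PBS. The rises of Nqo1, Gsta1, Gsta2, Gsta4 and Abcc1 over PBS kept their direction and stayed past the threshold under every alternative run.

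Differences near 0 changed sign. Ephx1 in MRC+L against PBS became 0.084 with the length trend removed and 0.012 without PBS replicate 2, and ranged from -0.30 to 0.012 with single libraries left out. For MRC+L against MRC, Abcc1 became -0.070 with the length trend removed, and Nqo1 became -0.020 with no filter, and ranged from -0.054 (without MRC replicate 1) to 0.046 with single libraries left out, below 0 also without MRC+L replicate 2 or MRC+L replicate 3. The cause was not tested. Groups share replicate numbers, but same-numbered libraries did not deviate together: r was -0.185 to 0.0385 over 9 pairs, so the numbers are taken as names. With the replicate number as a block, 4283 genes were called in MRC against PBS, 5490 in MRC+L against PBS and 0 in MRC+L against MRC, with 5 members higher and 1 lower in both comparisons with PBS. Ephx1 in MRC was the member no longer called (adjusted p = 0.0523). Depth limits Gsta2, with 4 PBS counts, and Cbr3, with none.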

Other observations

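Aldehyde dehydrogenases, which oxidise the aldehydes left by lipid peroxidation and metabolism, held 1 higher and 3 lower of 11 tested genes in MRC against PBS (median log2 fold change -0.16), and 1 higher and 4 lower in MRC+L (median -0.24). Over all genes tested, 17.8% were higher and 19.8% lower in MRC, and 21.8% and 24.5% in MRC+L. The list medians without PBS replicate 2 were -0.060 in MRC and -0.099 in MRC+L. Aldh3b1 fell 3.18-fold in MRC, from 28.7 ± 7.14 to 9.02 ± 1.74 CPM (edgeR adjusted p = 0.000186, n = 3 per group). Aldh6a1, an enzyme of valine breakdown, fell 1.55-fold (adjusted p = 0.00831). Aldh18a1, which serves proline synthesis, rose 1.58-fold from 143.8 ± 18.0 to 227.6 ± 7.93 CPM (adjusted p = 0.00134).

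Genes of phase I oxidation and of the aryl hydrocarbon receptor were 4 higher and 4 lower of 13 tested in MRC (median 0.17), and likewise 4 and 4 in MRC+L (median 0.27). Without PBS replicate 2 the medians were 0.20 and 0.16. Cyp1b1, a cytochrome P450 induced by that receptor, rose 3.41-fold from 57.7 ± 10.7 to 196.8 ± 8.84 CPM (adjusted p = 1.28e-05), and Tiparp, a feedback inhibitor of the receptor, rose 2.93-fold (adjusted p = 4.57e-05). Cyb5r3, a cytochrome b5 reductase, fell 1.78-fold from 349.1 ± 37.8 to 196.2 ± 13.7 CPM (adjusted p = 0.000361). Cyp1a1 had 0 to 8 counts by library and was not tested.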
